A study of Mus musculus with 4 samples.

Results

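Transcripts of 34 genes of lysosomes and autophagy were compared between NIH3T3 cells transfected with siTIMP1 and NIH3T3 cells transfected with siControl. The genes came from a given list, and their probes were found by gene name among the non-control probes of 4 one-colour Agilent arrays, 2 per group. All 34 names were found, on 74 of 56605 probes. Probes were tested where both siTIMP1 arrays or both siControl arrays gave a signal well above background. Each gene was read from its brightest tested probe, and all 34 members were among the 17734 tested genes. They comprise 14 lysosomal hydrolases and cofactors, 5 lysosomal membrane proteins, 12 genes of the autophagy core and the 3 MiT/TFE transcription factors.

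NIH3T3 is an established mouse fibroblast line, given in the labels as dermal fibroblasts. Both the siTIMP1 group and the siControl group received siRNA on apatite nanoparticles, called sCA in the labels, in medium with 2% fetal calf serum. No group here lacked the carrier or the siRNA, so no value sets carrier-treated against untreated cells, and a dose or time after transfection is not given in the sources used here. Whether the replicates were separate cultures is not stated, so each p-value reflects the spread of these arrays alone, and that spread may be technical. In whole cultures, fewer cells carrying a transcript and less of it per cell cannot be told apart.

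Lysosomes are acidic organelles in which hydrolases break down proteins, glycans, lipids and glycogen that arrive by endocytosis or autophagy. In autophagy, the ULK1 kinase and the Beclin 1 lipid kinase complex start a membrane that engulfs cytoplasm, and ubiquitin-like proteins of the LC3 and GABARAP families are coupled to its lipids before it fuses with a lysosome. The transcription factors TFEB, TFE3 and MITF bind E-box elements near many of these genes, and are known to be controlled largely by phosphorylation and nuclear entry. Calcium phosphate particles are taken up by endocytosis, a route that leads to lysosomes.

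The targeted gene was checked first. Timp1, a secreted inhibitor of metalloproteinases, had normalised log2 signals of 3.28 and 2.98 on the siTIMP1 arrays, against 8.16 and 8.54 on the siControl arrays, and fell by 5.22 (SE 0.158, limma adjusted p = 0.0105). Without siTIMP1 replicate 1 and replicate 2 its limma adjusted p was 0.137 and 0.184. All 4 arrays lay on 1 slide and shared 1 scan, with each group at neighbouring positions, so position and group cannot be told apart. The share of spots well above background ran from 45.9%, on siTIMP1 replicate 2, to 52.1%. All 8 fibroblast markers listed for this work (such as Col1a1, Thy1 and Vim) were well above background on every array. Of 8 macrophage markers, from a cell type rich in lysosomes, Cd14, Csf1r, Itgam and Ptprc were well above background on all 4 arrays, and Adgre1, Cx3cr1 and Tyrobp on none. Krt14 and Krt8 of 6 epithelial markers and Dct and Tyr of 5 melanocyte markers also were on all 4 arrays, and none of 4 endothelial markers was. Each marker was counted by its best probe. Itgam had a log2 difference of -0.32 (limma adjusted p = 0.114) and Csf1r of -0.29 (0.189), siTIMP1 minus siControl, without overlap between the groups. Of the other macrophage markers tested, Cd14 had -0.15, also without overlap, and Ptprc had 0.0082 with overlap. Aif1, well above background on 3 arrays, went the other way at 0.56 (limma adjusted p = 0.412), with siTIMP1 above siControl without overlap. Among all tested genes siTIMP1 lay below siControl without overlap for 23.0% and above for 31.0%. The summed processed signal of the macrophage list was 3440.4 and 3282 in siTIMP1 and 3732 and 3731 in siControl, and its part in the members' values was not tested.

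No member passed the threshold, an adjusted p under 0.05 in limma over all 26015 tested probes, where 0.0846% of genes were called higher and 0.699% lower with siTIMP1. The smallest adjusted p among the members was 0.0559, for the sialidase gene Neu1. At an unadjusted p under 0.05, 9 of 34 members had positive log2 fold changes, which is 26.5% of them beside 11.8% of all tested genes. A further 2 members had negative ones, which is 5.88% beside 7.98% of all genes. Together these are 11 members, where 19.8% of all genes were past that threshold in either direction. Counted over the 58 tested probes of the members, 12 probes were higher and 2 lower. Of all 26015 tested probes 2770 were higher (10.6%) and 2004 lower (7.70%). Probes of the same gene are not independent. The counts of genes depended on both siTIMP1 arrays: without siTIMP1 replicate 1 they were 4 and 0, and without siTIMP1 replicate 2 they were 2 and 1. The shares of all genes were also lower in these fits, at 5.46% higher and 5.99% lower without siTIMP1 replicate 1 and at 5.42% and 5.31% without siTIMP1 replicate 2.

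Most differences were small and positive. The log2 fold change, siTIMP1 over siControl, was above 0 for 26 members (76.5%, beside 54.0% of all genes) and below 0 for 8, and 33 of the 34 were under 0.5 in size. Both siTIMP1 arrays lay above both siControl arrays for 19 members (55.9%, beside 31.0% of all genes), and both lay below for 3 members (8.82%, beside 23.0%). With 2 arrays per group, an exact two-sided permutation test of a single gene cannot give a p below 0.333. The median of the members was 0.10, beside 0.024 over all tested genes. All 34 members were well above background on all 4 arrays, and the median over the 16052 such genes was 0.040. Relative to each gene's mean over the 4 arrays, the median member stood at 0.057 and 0.084 on the siTIMP1 arrays and at -0.064 and -0.048 on the siControl arrays. The same deviations over all genes were 0.017 and 0.012 in siTIMP1 and -0.021 and -0.0069 in siControl. After quantile normalization 23 members were above 0, and the median was 0.051 for the members and 0.0055 for all genes. A percentile taken over detected probes shifts all genes alike: 23 members were then above 0, with a median of 0.060 beside -0.017 for all genes.

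**Figure D1:**
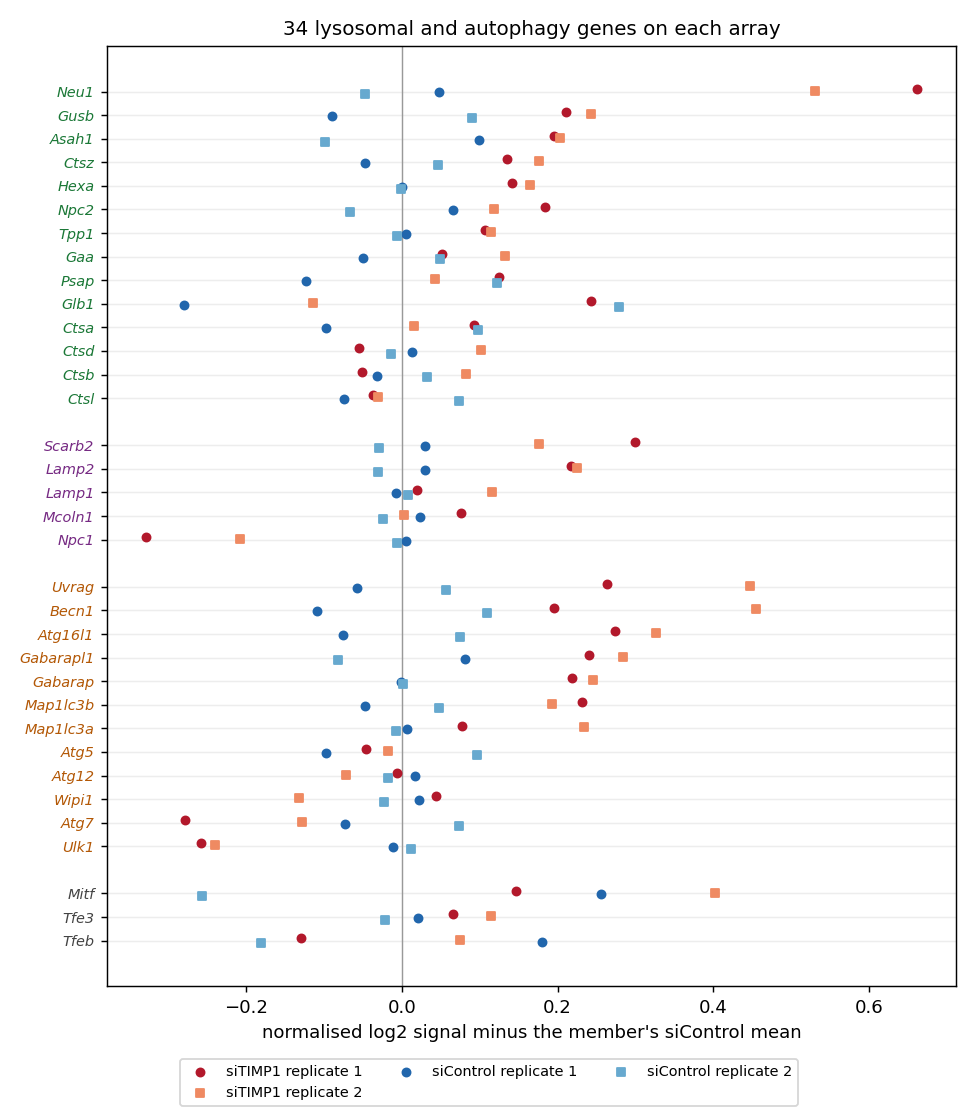
Normalised log2 signal of each of the 34 members on each array, minus that member's siControl mean, with siTIMP1 arrays in red and orange and siControl arrays in blue, ordered by class and fold change. Both siTIMP1 points lie right of both siControl points for 19 members, and Neu1 stands farthest right.

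A single E-box sequence, CACGTG, was looked up in the promoters, to show which members carry it. Other E-box sequences were not searched. RefSeq promoters of build GRCm38.p6, from 250 bases before to 50 after the start, had entries for 27 members (34 promoters). The E-box CACGTG, which reads the same on both strands, occurred in 9 of these 27 genes (33.3%), beside 8.09% of 27025 genes and 7.15% of 32851 promoters in the table. The stretches around each CACGTG are given below 5′ to 3′ on the gene's strand, with CACGTG in capitals.
Lamp1, chr8:13159080-13159171, plus strand: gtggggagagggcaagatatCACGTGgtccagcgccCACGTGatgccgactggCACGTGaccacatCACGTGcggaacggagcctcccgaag
Mcoln1, chr8:3500428-3500499, plus strand: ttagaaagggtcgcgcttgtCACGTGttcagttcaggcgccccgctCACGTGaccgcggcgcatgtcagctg
Ctsa, chr2:164833741-164833792, plus strand: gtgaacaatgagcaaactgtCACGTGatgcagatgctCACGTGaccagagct
Ctsd, chr7:142387900-142387945, minus strand: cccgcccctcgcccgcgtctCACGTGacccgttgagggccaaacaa
Ctsd, chr7:142388047-142388077, minus strand: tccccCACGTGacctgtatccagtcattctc
Ctsl, chr13:64370731-64370770, minus strand: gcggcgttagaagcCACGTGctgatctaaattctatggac
Gaa, chr11:119267803-119267848, plus strand: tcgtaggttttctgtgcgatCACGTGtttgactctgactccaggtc
Glb1, chr9:114401010-114401055, plus strand: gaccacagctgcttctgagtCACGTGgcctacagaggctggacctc
Atg5, chr10:44268305-44268350, plus strand: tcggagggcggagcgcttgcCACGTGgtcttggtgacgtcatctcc
Atg7, chr6:114670944-114670989, plus strand: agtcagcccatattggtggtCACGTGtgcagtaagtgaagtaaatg

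Lamp1 carried 4 copies of CACGTG within these bases, and Mcoln1, Ctsa and Ctsd carried 2 each. The 9 genes with CACGTG had log2 fold changes from -0.20 to 0.092, with a median of 0.040, and none had an unadjusted p under 0.05. The 18 genes with an entry and no CACGTG, which may hold other E-box sequences, ran from -0.25 to 0.60, with a median of 0.18. Of these, 9 had an unadjusted p under 0.05. Over all tested genes that share was 19.8%. Atg16l1 and Npc1, also past that threshold, had no promoter entry and are in neither set. The split was made after the fold changes had been seen and was not tested. A match describes letters in this window and is no evidence of binding.

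**Figure D2:**
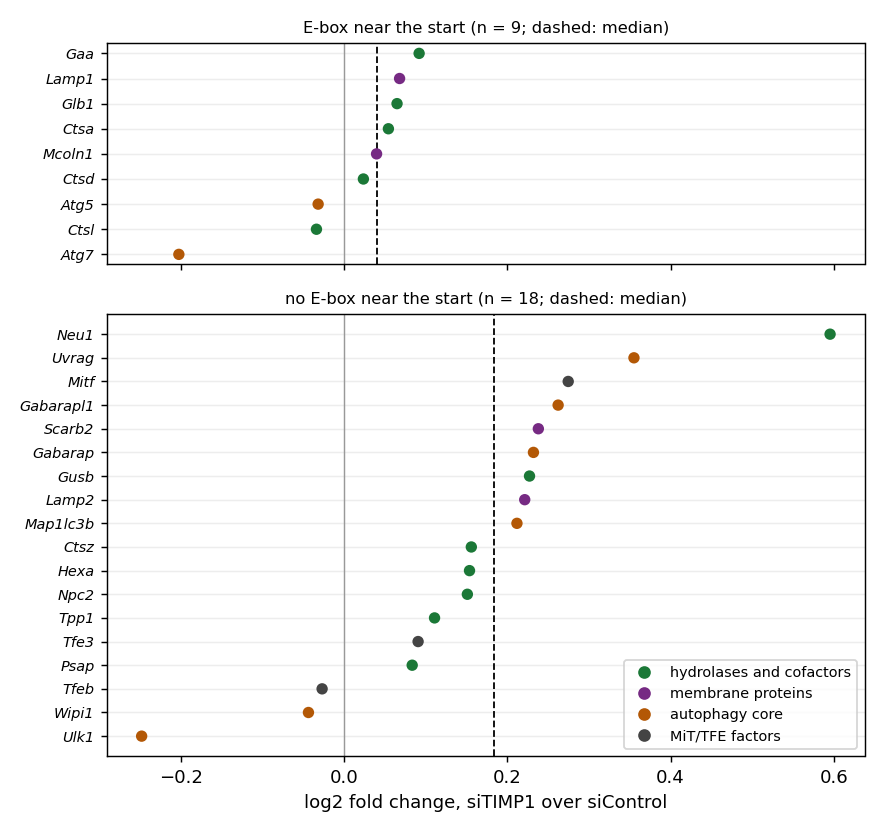
Log2 fold change, siTIMP1 over siControl, of the 27 members with a promoter entry, with colours for classes and a dashed line at each median. Members are split by whether CACGTG, the only E-box sequence searched, lies in the promoter entry. The 9 genes with CACGTG lie between -0.20 and 0.092, and Neu1 is the rightmost of the 18 without it.

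Neu1 led the hydrolases. It encodes the lysosomal sialidase, which removes terminal sialic acids from glycans, and its probe lies on chromosome 17 at 35072105 to 35072164 (mm9, plus strand). The processed signals were 5648 and 5150 on the siTIMP1 arrays (5149.5 before rounding), against 3616 and 3311 on the siControl arrays. On the normalised log2 scale they were 4.89 and 4.76 in siTIMP1, against 4.28 and 4.19 in siControl. Both siTIMP1 arrays lay above both siControl arrays, and the gap between the groups, 0.48, was wider than the spread within either. The log2 fold change was 0.60 (SE 0.0733, 95% interval 0.41 to 0.78, limma adjusted p = 0.0559), a level 1.51 times that of siControl. In the main fit 15 of 17734 genes were called higher and 124 lower. Neu1 was called with robust variances (limma adjusted p = 0.0383), where 53 of 17734 genes were called higher and 185 lower. It was also called with no filter on dim probes (0.0142), where 107 of 37124 genes were called higher and 258 lower. With 1 array left out the log2 fold change of Neu1 was 0.53 to 0.66. Without siTIMP1 replicate 1 and replicate 2 its limma adjusted p was 0.306 and 0.266. Its 250 promoter bases, at chr17:34931003-34931252 on the plus strand, hold no CACGTG and are shown in lower case throughout, as the sequence of the member with the largest difference.
Neu1: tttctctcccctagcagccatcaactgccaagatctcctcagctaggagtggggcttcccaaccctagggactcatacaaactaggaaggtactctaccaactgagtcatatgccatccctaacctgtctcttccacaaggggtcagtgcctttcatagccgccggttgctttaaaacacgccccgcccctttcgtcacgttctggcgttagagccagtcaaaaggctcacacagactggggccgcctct

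In lysosomes the sialidase works in a complex with the protective protein cathepsin A and with beta-galactosidase. Ctsa had 6.75 and 6.67 in siTIMP1 and 6.56 and 6.75 in siControl, with a log2 fold change of 0.054 (95% interval -0.15 to 0.25). Glb1, for beta-galactosidase, had 3.16 and 2.80 in siTIMP1 and 2.64 and 3.20 in siControl, with a log2 fold change of 0.065 (95% interval -0.49 to 0.62). The groups overlapped for both genes, and the difference between either gene and Neu1 was not tested. The other 3 tested Glb1 probes gave 0.025 to 0.17.

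Gusb, which encodes beta-glucuronidase, was the other hydrolase with an unadjusted p under 0.05. Its probe on chromosome 5 (130465133 to 130465192, mm9, minus strand) gave 2.72 and 2.75 in siTIMP1, against 2.42 and 2.60 in siControl. Its log2 fold change was 0.23 (SE 0.0872, limma adjusted p = 0.267), and a second probe gave 0.26. Asah1, for acid ceramidase, had 0.20 on its brightest probe and 0.31 on the other, with siTIMP1 above siControl on both. Further differences without overlap were those of Ctsz (cathepsin Z, 0.16), Hexa (a subunit of beta-hexosaminidase, 0.15), Npc2 (a soluble sterol carrier, 0.15), Tpp1 (a tripeptidyl peptidase, 0.11) and Gaa (acid alpha-glucosidase, which degrades glycogen, 0.092). For Gaa the groups were only 0.0016 apart.

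The members that encode cathepsins D, B and L had intervals that span 0. Ctsd, for cathepsin D, had 6.14 and 6.30 in siTIMP1 and 6.21 and 6.18 in siControl, with a log2 fold change of 0.024 (95% interval -0.15 to 0.19). Ctsb, for cathepsin B, had 0.016 (-0.14 to 0.17), and Ctsl, for cathepsin L, had -0.034 (-0.18 to 0.12). Psap, the precursor of the saposins that present lipids to hydrolases, had 0.083. The groups overlapped for all of these. Ctsk, for cathepsin K and not a member of the list, had 0.19 (limma adjusted p = 0.202), with siTIMP1 above siControl without overlap. In all, 13 of the 14 hydrolases and cofactors were above 0 (92.9%, beside 54.0% of all tested genes), and their median was 0.10. For 8 of them siTIMP1 lay above siControl without overlap (57.1%, beside 31.0%), and for none below (beside 23.0%).

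**Figure D3:**
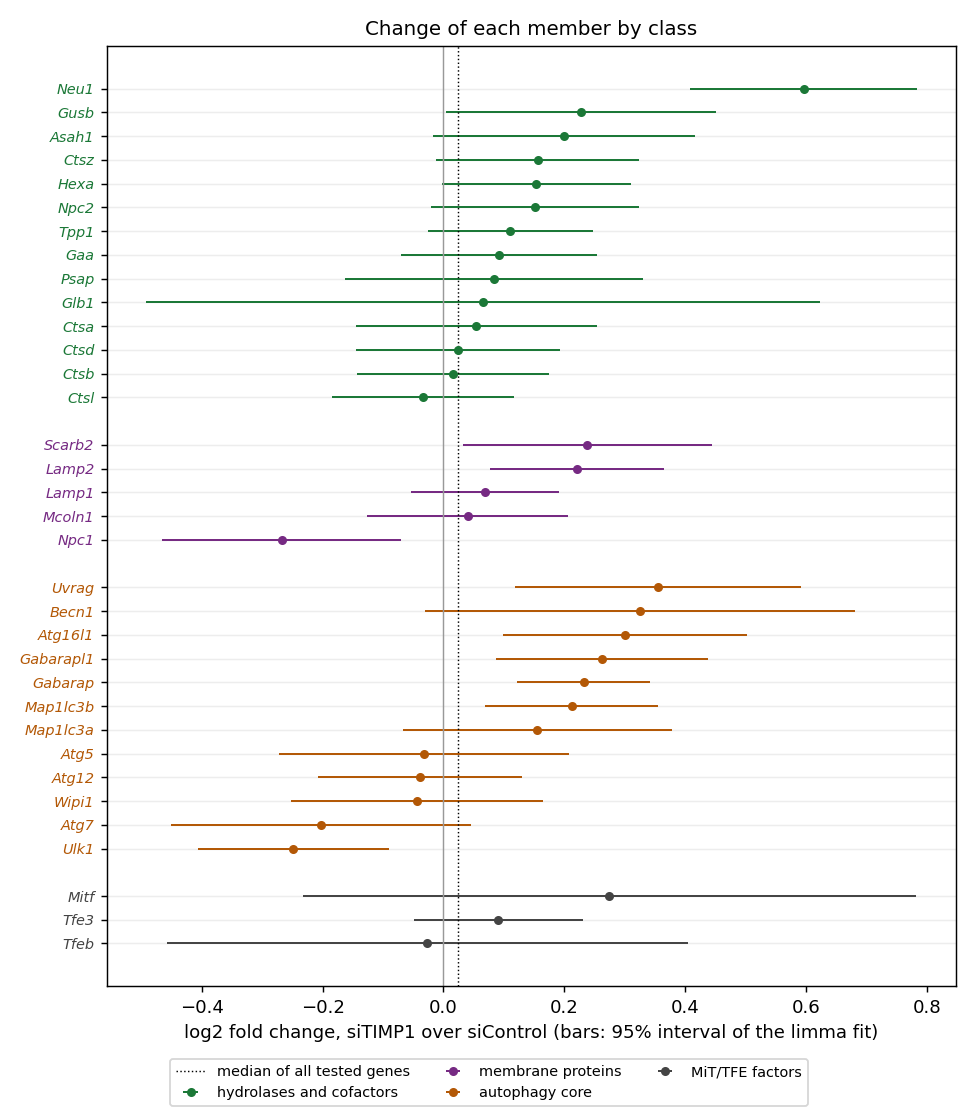
Log2 fold change, siTIMP1 over siControl, of each member with the 95% interval of the limma fit, by class, and a dotted line at the median of all tested genes (0.024). The interval of Neu1 is the farthest from 0, and those of Npc1 and Ulk1 lie below 0.

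Among the membrane proteins, Lamp2 and Scarb2 were higher and Npc1 lower at the unadjusted threshold. Lamp2, a heavily glycosylated protein of the limiting membrane, had 4.58 and 4.59 in siTIMP1, against 4.40 and 4.34 in siControl. Its log2 fold change was 0.22 (SE 0.0563, limma adjusted p = 0.164) on the probe at 35772774 to 35772833 of chromosome X (mm9, minus strand). A Lamp2 probe at 35777505 to 35777564, which the array files assign to transcript variant 1 where they assign the brightest probe to variant 2, gave 2.16 and 2.24 in siTIMP1 and 2.32 and 2.16 in siControl. There the groups overlapped and the log2 fold change was -0.039 (95% interval -0.27 to 0.19). The third tested Lamp2 probe gave 0.35, with wider scatter.

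Scarb2 encodes LIMP-2, a membrane protein that carries beta-glucocerebrosidase to lysosomes. Its values were 2.53 and 2.41 in siTIMP1, against 2.26 and 2.20 in siControl, and its log2 fold change was 0.24 (SE 0.0803, limma adjusted p = 0.229). Its second probe gave 0.15. Both arrays of siTIMP1 were above those of siControl on either probe.

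Npc1 and Npc2, whose proteins pass cholesterol out of the lysosome one after the other, differed in sign. Npc1, the membrane transporter, had 2.28 and 2.40 in siTIMP1, against 2.61 and 2.60 in siControl, without overlap. Its log2 fold change was -0.27 (SE 0.0772, limma adjusted p = 0.189). Npc2, the soluble carrier, had 5.34 and 5.28 in siTIMP1, against 5.22 and 5.09 in siControl, a log2 fold change of 0.15 (95% interval -0.021 to 0.32). The difference between these 2 genes was not tested. Lamp1 and the calcium channel gene Mcoln1 had 0.068 (95% interval -0.054 to 0.19) and 0.040 (-0.13 to 0.21).

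All 4 members that encode ubiquitin-like proteins of the LC3 and GABARAP families had positive log2 fold changes, and 3 of them had an unadjusted p under 0.05. Of all tested genes, 54.0% were above 0 and 11.8% were higher at that threshold. Gabarap had 6.63 and 6.66 in siTIMP1, against 6.41 and 6.42 in siControl, and a log2 fold change of 0.23 (SE 0.0428, limma adjusted p = 0.108). With the mean of its probes Gabarap had 0.22 (limma unadjusted p = 0.0659). Gabarapl1 had 6.34 and 6.38 in siTIMP1, against 6.18 and 6.01 in siControl, and a log2 fold change of 0.26 (SE 0.0686, adjusted p = 0.172). Its second probe gave 0.40 (adjusted p = 0.103). With 1 array left out Gabarapl1 had 0.18 to 0.34.

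Map1lc3b, which encodes the LC3B protein used to mark autophagosomes, had 5.89 and 5.85 in siTIMP1, against 5.61 and 5.71 in siControl. Its log2 fold change was 0.21 (SE 0.0559, limma adjusted p = 0.173), and its second tested probe gave 0.19. Map1lc3a had 0.16 (95% interval -0.066 to 0.38). For all 4 genes the siTIMP1 arrays lay above the siControl arrays, as they did for 31.0% of all tested genes. Gabarapl2, a further gene of this family outside the list and named after its values were seen, had 0.083, and its 3 tested probes ran from -0.60 to 0.34.

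Ulk1, the kinase gene at the start of autophagy, went the other way. Its values were 3.17 and 3.18 in siTIMP1, against 3.41 and 3.44 in siControl, so the groups did not overlap and both pairs were tight. The log2 fold change was -0.25 (SE 0.0615, limma adjusted p = 0.159) on chromosome 5 at 111213514 to 111213573 (mm9, minus strand). Of the partners of the kinase, Atg13 and Atg101 had 0.41 (limma adjusted p = 0.114) and 0.34 (0.114), both higher on the siTIMP1 arrays without overlap. Rb1cc1, for the partner FIP200, had -0.071 with overlap between the groups, and its 7 tested probes ran from -0.44 to 0.27.

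Uvrag and Becn1 were the members from the Beclin 1 lipid kinase complexes. Uvrag, which joins the complex that acts on endosomes and late autophagosomes, had 3.13 and 3.31 in siTIMP1, against 2.81 and 2.92 in siControl. Its log2 fold change was 0.36 (SE 0.0925, limma adjusted p = 0.171). Becn1, for Beclin 1 itself, had 0.16 and 0.42 in siTIMP1, against -0.14 and 0.078 in siControl, and a log2 fold change of 0.33 (95% interval -0.031 to 0.68). Atg14, the partner of Beclin 1 in the early complex and not a member of the list, had 0.080 and 0.0098 in siTIMP1, against -0.86 and -1.21 in siControl. At 1.08 (SE 0.150, limma adjusted p = 0.0656) it differed more than any member, on 1 tested probe. Of other genes tied to these complexes, Pik3r4 (the VPS15 subunit) had -0.0014, Ambra1 -0.025 and Rubcn 0.0018, all with overlap. Bcl2, also outside the list, had -0.53 (limma adjusted p = 0.161), with siTIMP1 below siControl without overlap, and its second probe gave -0.41. Pik3c3, for the lipid kinase itself, had -1.76 and 0.67 in siTIMP1, against -1.998 and -1.82 in siControl, with a limma adjusted p of 0.399. Atg14, Atg13 and Atg101 were named because their p-values were the 3 smallest among the further autophagy genes, a choice that favours large differences. The other genes set beside the members of the kinase complexes and the cathepsins were chosen after their values were seen.

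In the conjugation machinery the values were mixed. Atg16l1, which places the conjugation enzyme on the membrane, had 3.41 and 3.46 in siTIMP1, against 3.06 and 3.21 in siControl, and a log2 fold change of 0.30 (SE 0.0789, limma adjusted p = 0.173). The dimmer Atg16l1 probes, which overlap each other on chromosome 1 (89685064 to 89685123 and 89685077 to 89685136, mm9), gave -0.52 and -0.48. On the first of them siControl replicate 2 stood at 1.07, against 0.17 on siControl replicate 1 and 0.14 and 0.059 in siTIMP1. With the mean of its probes the value of Atg16l1 was -0.23. Atg7, the activating enzyme, had -0.20 on its brightest probe (95% interval -0.45 to 0.046) and 0.10 on the other. Atg5, Atg12 and Wipi1, for a phosphoinositide-binding protein of the early membrane, lay between -0.044 and -0.032, with overlap between the groups. Of the 12 autophagy core genes 7 were above 0 (58.3%, beside 54.0% of all tested genes) and 5 below, and their median was 0.18.

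**Figure D4:**
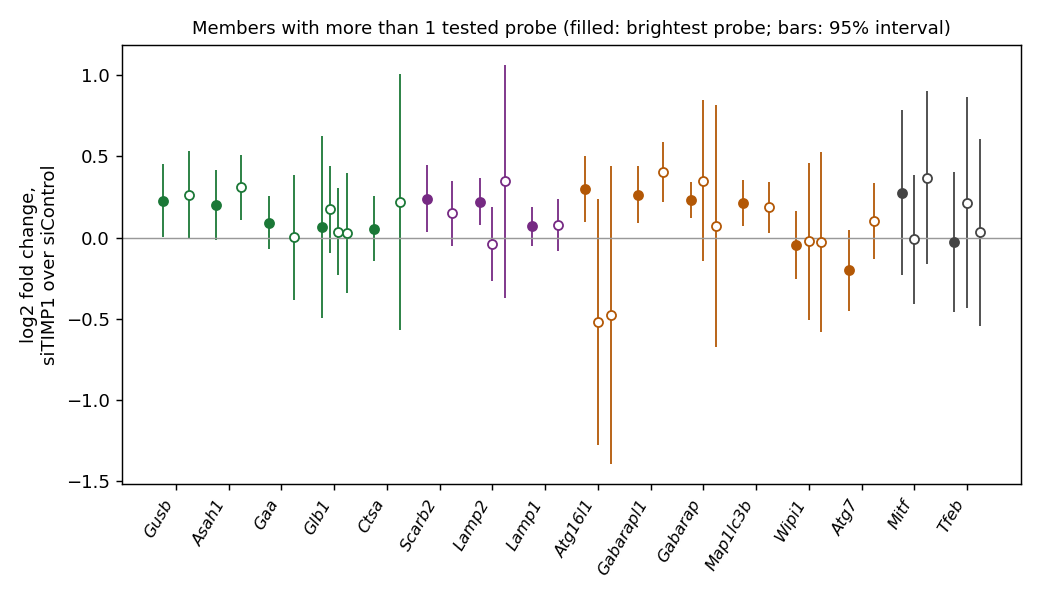
Log2 fold change, siTIMP1 over siControl, with 95% intervals for every tested probe of the 16 members that had more than 1, where filled points are the brightest probe of a gene. The probes had one sign for 11 members and both signs for 5, and the 2 dim Atg16l1 probes near -0.5 have wide intervals.

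The MiT/TFE factors themselves showed no difference past the unadjusted threshold. Tfe3 had 4.90 and 4.95 in siTIMP1, against 4.86 and 4.82 in siControl. Its groups did not overlap, and the log2 fold change was 0.091 (95% interval -0.049 to 0.23, limma adjusted p = 0.422). Tfeb had -1.05 and -0.84 in siTIMP1, against -0.74 and -1.10 in siControl, and a log2 fold change of -0.027 (95% interval -0.46 to 0.40). Mitf had 0.64 and 0.89 in siTIMP1, against 0.74 and 0.23 in siControl, and a log2 fold change of 0.27 (95% interval -0.23 to 0.78). For Tfeb and Mitf the siControl arrays lay farther apart than the group means. The other tested probes gave 0.032 and 0.21 for Tfeb, and -0.012 and 0.37 for Mitf.

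Other genes of the same pathways were set beside the members. Over all tested genes, 11.8% were higher and 7.98% lower at the unadjusted threshold. Of 33 further hydrolases and cofactors 7 were higher (21.2%) and 2 lower (6.06%) at that threshold. They were led by the peptidase gene Scpep1 (0.27), the sulfamidase gene Sgsh (0.27) and the iduronidase gene Idua (-0.33). Of 21 further membrane proteins 5 were higher (23.8%) and 2 lower (9.52%). Among them were Ostm1 at 0.50 and Clcn7 at 0.32, whose proteins form a chloride-proton exchanger, and the sialic acid exporter gene Slc17a5 at -0.31. A second Ostm1 probe gave -0.15. In mannose 6-phosphate sorting, the route by which hydrolases reach lysosomes, 4 of 13 genes were higher (30.8%) and 2 lower (15.4%). Ap1g1, for an adaptor subunit, had 0.50, the sorting adaptor gene Gga2 had 0.44 and the receptor gene M6pr had -0.32. The 5 tested probes of Ap1g1 ran from 0.027 to 0.56. Other probes of Gga2 and M6pr gave values of the opposite sign, as low as -0.35 for Gga2 and as high as 0.078 for M6pr.

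Of 35 further autophagy genes, Atg14, Atg13 and Atg101 among them, 11 were higher (31.4%) and 1, Bcl2, lower (2.86%) at the unadjusted threshold. Over all tested genes these shares were 11.8% and 7.98%. The median of the 35 genes was 0.15. None of 13 autophagy receptors was past that threshold, with Tex264 at 0.13, Nbr1 at 0.18 and Tollip at 0.17. Of 24 genes that relay nutrients to TFEB, 3 were higher (12.5%) and 2 lower (8.33%), with Fnip2 at -0.41, Rragc at 0.40 and Lamtor1 at 0.23. None of the genes of these 6 lists passed the adjusted threshold.

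The vacuolar proton pump, which acidifies lysosomes, was the only list here with called genes. Atp6v1b2 fell by 1.08 (SE 0.0594, limma adjusted p = 0.0181) and Atp6v1d by 0.57 (SE 0.0506, adjusted p = 0.0284). Atp6v1b2 had 3.86 and 3.91 in siTIMP1, against 4.93 and 4.99 in siControl. Of the 16 pump genes 12 were above 0 (75%, beside 54.0% of all tested genes), among them Atp6v1h at 0.27, and the median was 0.15.

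**Figure D5:**
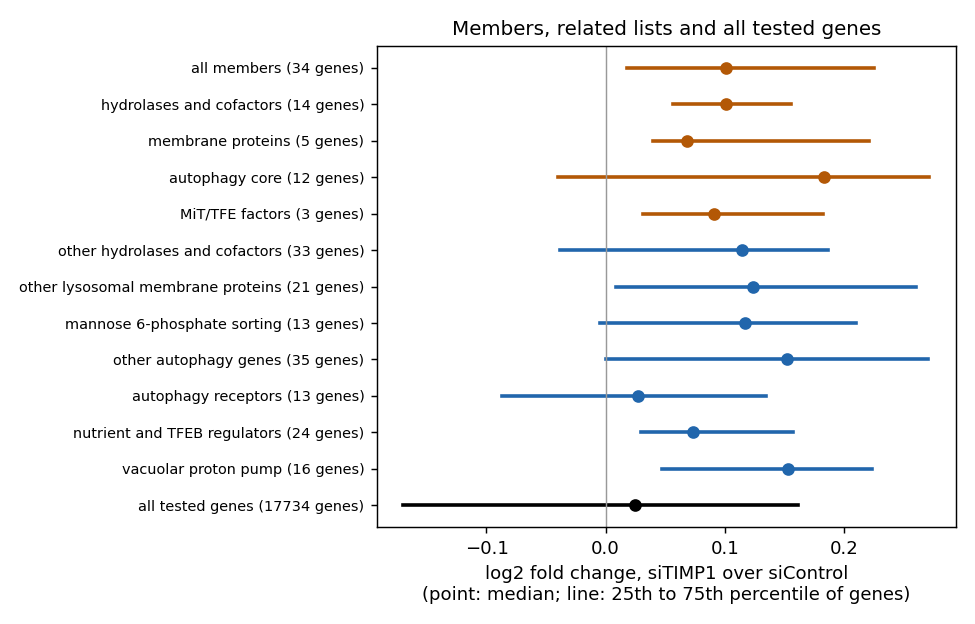
Median log2 fold change, siTIMP1 over siControl, with the 25th to 75th percentile of genes, for the members and their classes, for related lists and for all tested genes. The medians of the members' classes lie between 0.068 and 0.18 and that of all genes at 0.024.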

How the data were processed

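The authors deposited spot intensity values from Agilent Feature Extraction (version 11.5.1.1 in the submitters' processing notes). Spatial and multiplicative detrending within each array were on and a separate background correction was off, per the file headers. The authors' deposited log2 value table tracked the log2 processed signal minus 1 constant per array (6.90 to 6.96), with column medians of -3.99 and -3.91 in siTIMP1 and -3.94 and -3.86 in siControl, and served as an alternative.

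Here log2 processed signals were reduced by each array's 75th percentile, control and outlier spots were left out and spots of a probe averaged. No spot was saturated. Over 26015 probes, limma 3.58.1 (R 4.3.3) compared siTIMP1 with siControl, using lmFit and eBayes with a mean-variance trend. P-values were adjusted by Benjamini-Hochberg, and the fit was tested on simulated data. The number of arrays limits the precision.

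The members and lists were chosen with earlier results of these data known. Values on each array are given for members at an unadjusted p under 0.05, the MiT/TFE factors and members whose probes disagree, with some others beside them as comparisons. Of the related lists, called genes and the 3 of smallest p were to be named. Symbols of 32994 probes were matched through RefSeq accessions. Alternatives covered background correction, scaling, filters, variance models, outliers, probe averaging, the value table, the threshold and leaving out each array. Figures used matplotlib 3.10.9.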

Additional observations from a re-analysis of the deposited data

How the results depend on the processing

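Timp1 had -5.22 at an adjusted p of 0.133 in limma without a variance trend, and -5.41 to -5.04 with 1 array left out. No member was called lower under any of the alternatives run. Members called higher numbered 1 at an adjusted p under 0.1, with no filter and with robust variances (Neu1 each time). Among all genes 107 were called higher with no filter and 53 with robust variances, beside 15 in the main fit. With 1 array left out Neu1 had 0.53 to 0.66 and Gabarapl1 had 0.18 to 0.34. Members higher at an unadjusted p under 0.05 numbered 4 without a trend and 2 to 12 with 1 array left out, and members lower 0 to 3. Beside these counts, 7.53% of all genes were higher without a trend, and 5.42% to 13.6% higher and 5.31% to 11% lower with 1 array left out. The median of all members was 0.13 after normexp, 0.051 after quantile normalization, 0.060 with a percentile of detected probes and 0.11 to 0.12 with 1 array left out. That of the hydrolases and cofactors was 0.14, 0.042 and 0.060 under the same 3 settings and 0.076 to 0.15. That of the membrane proteins was 0.079, 0.045 and 0.027, 0.073 when a gene's probes were averaged, 0.070 with the value table and 0.063 to 0.12. That of the autophagy core was 0.14 after quantile normalization and 0.14 with a percentile of detected probes, 0.062 when a gene's probes were averaged and 0.14 to 0.21. That of the MiT/TFE factors was 0.018 to 0.15 with 1 array left out. Atg16l1 had -0.23 with the mean of its probes, which brings in its dimmer probes, and no other member at an unadjusted p under 0.05 changed sign. With no filter, the median of all genes was 0.14, above that of the members. For the other changes the cause was not tested. With 1 array left in a group, limma assumes that it varies like the others. No paired analysis was run, because no number in the sample titles occurs in both siTIMP1 and siControl. The replicate numbers used here only order the arrays within a group. A block for the slide was not run, as all arrays were on 1.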

Other observations

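Of the 74 member probes, 16 were not well above background on both arrays of a group and were not tested. A few of these had signal on a single array, and they are named after their values were seen. An Npc1 probe stood at -2.45 on siTIMP1 replicate 1, against -5.93 on siTIMP1 replicate 2 and -6.64 and -6.77 on the siControl arrays. A Uvrag probe stood at -3.38 on siTIMP1 replicate 2, against -6.82 on siTIMP1 replicate 1 and -6.82 and -6.90 on the siControl arrays. A Tfe3 probe stood at -5.10 and -6.04 in siTIMP1, and in siControl at -3.32 on replicate 2 against -6.14 on replicate 1.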
